A study of Rattus norvegicus with 6 samples.

Results

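The clusters described here are dense stretches of SYNCRIP peaks, one of 49 peaks on the minus strand of chromosome 15 (43475741 to 43477980, rn6, 1-based) and one of 45 peaks on the minus strand of chromosome 18 (37713061 to 37714620). Together they hold 94 of the 12583 peaks in the 3 lists analysed. The clusters were chosen by position in these same lists, from stretches where peaks lay close together and recurred between libraries, so their peak density and their agreement between libraries are given as a description, with no test. The clusters had been expected to lie in Dpysl2 and Dpysl3, respectively. No rn6 annotation was used here, so neither assignment was checked, no exon, intron or UTR is given, and the clusters are called by their chromosomes. The RefSeq gene table, which is of another build (GRCr8), lists Dpysl2 and Dpysl3 on chromosomes of the same numbers, which does not place the peaks within either gene. No sequence is printed, since none of build rn6 was used here.

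SYNCRIP (hnRNP Q) binds RNA in the nucleus and the cytoplasm and takes part in mRNA transport, stability and translation, in neurons among other cells. In iCLIP, ultraviolet light joins proteins covalently to the RNA they touch, an antibody recovers the protein, and the ends of the copied RNA fragments mark the contacts. As background to the expected genes, Dpysl2 and Dpysl3 encode the collapsin response mediator proteins CRMP2 and CRMP4, cytosolic phosphoproteins of growing neurons. CRMP2 binds tubulin dimers, favours axon growth and takes part in the growth cone's response to semaphorin 3A. CRMP4 is a related protein that is abundant in young neurons.

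All libraries came from cytoplasmic RNA of primary cortical neurons of Sprague-Dawley rats after 6 days in vitro, exposed to 300 mJ/cm2 of UV-C. The study has 2 groups of 3 samples, one precipitated with an antibody against hnRNP Q and the other with an IgG1 isotype control. Values of the IgG group were not analysed here, and no value below has the background of the precipitation beside it. The 3 SYNCRIP lists held 5687, 4163 and 2733 peaks in replicates 1, 2 and 3. Sequencing depth is unknown, so only the number of listed peaks speaks to yield, and the RNA level of neither locus was measured in these files.

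In the chromosome 15 cluster, which is 2240 nt long, replicate 1 had 19 peaks, replicate 2 had 18 and replicate 3 had 12. In the chromosome 18 cluster, which is 1560 nt long, replicate 1 had 14 peaks, replicate 2 had 15 and replicate 3 had 16. The number of peaks on chromosome 15 was thus lowest in the shortest list, whereas that on chromosome 18 varied by 1 peak around 15. As a share of its list, the chromosome 15 cluster took 0.334% of replicate 1 (95% Wilson interval 0.214 to 0.521), 0.432% of replicate 2 (0.274 to 0.682) and 0.439% of replicate 3 (0.251 to 0.766). The chromosome 18 cluster took 0.246% (0.147 to 0.413), 0.360% (0.218 to 0.594) and 0.585% (0.361 to 0.949) of the respective lists. These intervals cover counting error only and treat neighbouring peaks as independent, and they overlap between the clusters in each library.

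Per length, the chromosome 18 cluster was the denser of the pair in each library. Replicate 1 had 8.48 peaks per kb on chromosome 15 and 8.97 on chromosome 18. Replicate 2 had 8.04 and 9.62 peaks per kb, and replicate 3 had 5.36 and 10.3. The mean was 7.29 ± 1.69 peaks per kb on chromosome 15 and 9.62 ± 0.64 on chromosome 18 (SD, n = 3 libraries). The difference within a library averaged 2.32 ± 2.30 peaks per kb (SD, n = 3), about the same as its own spread. Replicate 3 contributed most of it, and without that library the difference was 1.04 peaks per kb. With each list shortened to its 2733 highest-scoring peaks, the chromosome 15 cluster had 12, 13 and 12 peaks and the chromosome 18 cluster 11, 13 and 16. At that equal list length the densities were 5.51 ± 0.26 and 8.55 ± 1.61 peaks per kb (SD, n = 3).

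Peaks covered more of the chromosome 18 cluster as well. The covered share was 42.0%, 33.0% and 22.3% on chromosome 15 in replicates 1, 2 and 3, and 48.7%, 41.03% and 34.6% on chromosome 18. The difference was 9.01 ± 2.91 percentage points (SD, n = 3) and lay above 0 in 3 of 3 libraries, by 6.75, 7.99 and 12.3 points. In both clusters the covered share fell from the longest list to the shortest. This contrast rests on the edge of the chromosome 18 window. Regions were chained into a cluster over gaps of at most 200 nt, and the next peaks upstream on the chromosome 18 minus strand began 260 nt away. When gaps of at most 1 kb are bridged, an alternative chosen after the data were seen, the cluster grows to 3440 nt and thins to 7.07 ± 0.84 peaks per kb and to a covered share of 28.3% ± 7.3 (SD, n = 3). The difference from chromosome 15 then turned to -0.22 ± 0.87 peaks per kb and to -4.15 ± 2.58 percentage points. The former lay within its spread. In peaks per kb, replicate 3 was still higher on chromosome 18 (6.10 against 5.36), whereas replicates 1 and 2 were lower.

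**Figure D1:**
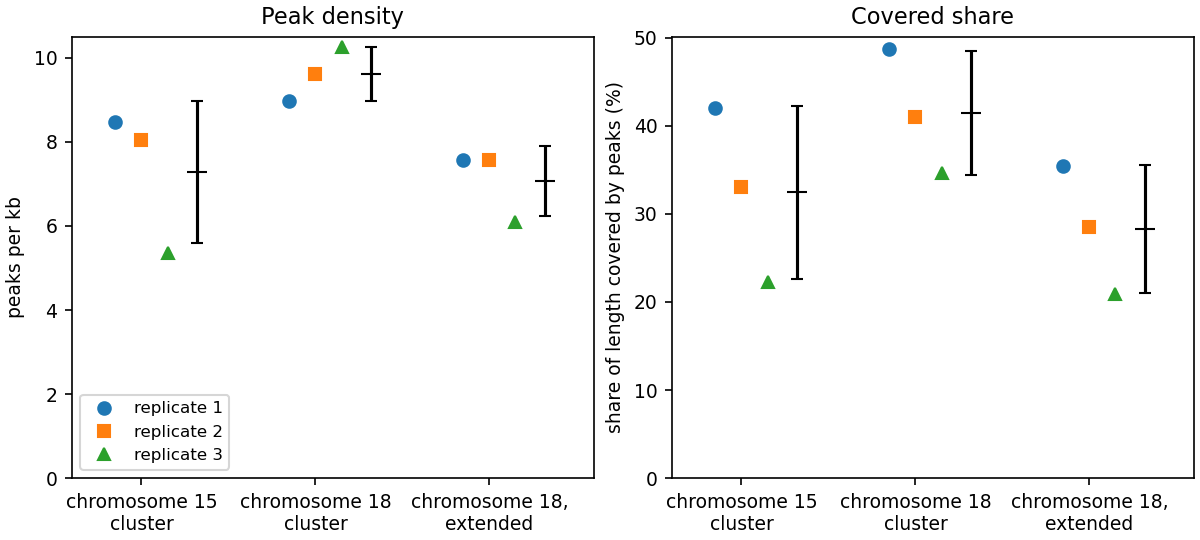
Peaks per kb (left) and the share of the length covered by peaks (right) in the chromosome 15 cluster, the chromosome 18 cluster and the chromosome 18 cluster extended over gaps of at most 1 kb; points are libraries and bars show the mean ± SD of 3. The chromosome 18 cluster lies above the chromosome 15 cluster in each library, and the extended one, at 7.07 peaks per kb, does not.

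The surroundings of both clusters differ. On chromosome 15 the nearest region of peaks on the same strand lay 166200 nt upstream and the nearest downstream 1777400 nt away, so the cluster kept its 2240 nt when gaps of up to 1 kb were bridged. On chromosome 18 the stretch from 37714621 to 37716500 held 15 more regions with 12, 11 and 5 peaks in replicates 1, 2 and 3. Downstream of the chromosome 18 cluster, the nearest region on its strand was 727060 nt away. Neither window held a peak on the plus strand.

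The rule that set the windows left strong peaks just outside 1 of the 4 edges. The outermost peaks of the chromosome 15 cluster were found in replicate 1 alone, with scores of 33 at the 5′ edge and 38 at the 3′ edge, where the lowest score of that list was 32. The 5′ edge of the chromosome 18 cluster is a single bin found in all 3 libraries, with scores of 49, 47 and 22 in replicates 1, 2 and 3, and its 3′ edge is a bin found in replicates 1 and 2, with 48 and 33. The first peak beyond the 5′ edge, at 37714881 to 37714900, was in replicate 1 alone with a score of 37. The region after that, at 37715001 to 37715100, was found in all 3 libraries with highest scores of 203, 155 and 101. No region within the window reached the score of this one in any of the 3 lists, the highest inside being 168, 108 and 56. Its score percentile, which is the share of peaks in the same list that score lower, with equal scores counted by mid-rank, was 98.8, 99.1 and 98.7.

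**Figure D2:**
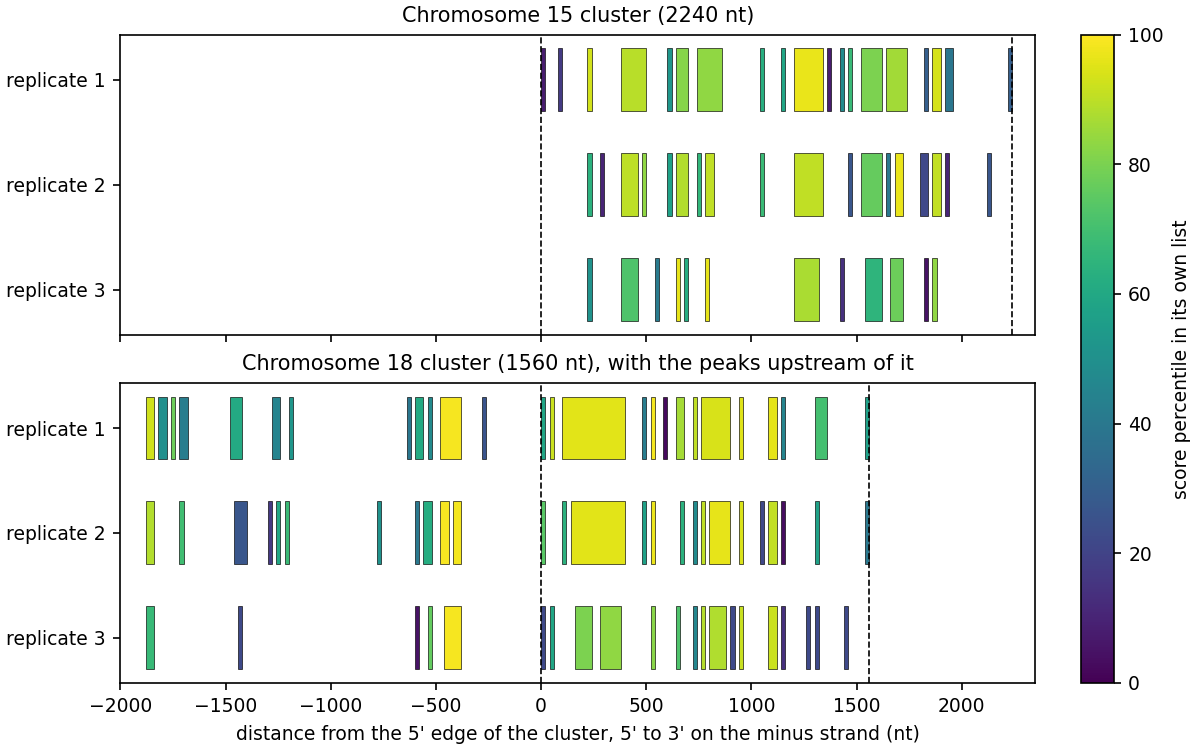
Peaks of each library along the chromosome 15 cluster (top) and the chromosome 18 cluster with the peaks upstream of it (bottom), by distance in nt from the 5′ edge of the cluster; each box is a peak, its colour is the score percentile within its own list, and dashed lines mark the edges of the clusters. Wide, high-scoring peaks recur at the same places in all 3 libraries, and the chromosome 18 panel shows 15 further regions upstream of the edge.

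Overlapping peaks of the 3 lists (at least 1 shared base on 1 strand) were merged into regions, and a region with peaks of all 3 libraries is called core. The chromosome 15 cluster had 22 regions, of which 9 were core (40.9%), 5 had peaks in 2 libraries and 8 in 1. The chromosome 18 cluster had 18 regions, of which 10 were core (55.6%), 3 had peaks in 2 libraries and 5 in 1. Over all 7023 regions 24.9% were core, and 48.2% had peaks in at least 2 libraries, against 14 of 22 (63.6%) on chromosome 15 and 13 of 18 (72.2%) on chromosome 18. In the 51 other clusters of at least 10 regions, 360 of 876 regions were core (41.1%), so the chromosome 15 share is close to that of other dense clusters. The chromosome 18 shares rest on the edge of its window. Extended over gaps of at most 1 kb, it had 33 regions, of which 15 were core, 5 had peaks in 2 libraries and 13 in 1. Both shares were then lower, and that of regions in at least 2 libraries fell below the chromosome 15 share. Since core regions entered the choice of the clusters, nothing is read from the higher shares.

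Within the 2 windows, regions seen in a single library were divided differently among the libraries. On chromosome 15, 5 of the 8 regions seen once were in replicate 1, 2 in replicate 2 and 1 in replicate 3 (62.5%, 25.0% and 12.5%), close to the 64.9%, 24.7% and 10.4% among all 3637 such regions. On chromosome 18, 1 was in replicate 1, 1 in replicate 2 and 3 in replicate 3, although replicate 3 has the shortest list. All 3 of the latter scored 22, beside a lowest score of 20 in that list. The stretch upstream of the chromosome 18 window held 8 more regions seen once, all in replicate 1 or 2 and most in replicate 1. Over the extended window, replicate 3 thus had the fewest such regions. Of the chromosome 15 peaks, 47.4%, 66.7% and 83.3% lay in core regions in replicates 1, 2 and 3, and of the chromosome 18 peaks 71.4%, 80.0% and 75.0%. Over the whole lists these shares were 31.5%, 46.0% and 71.2%. The differences between the clusters were 24.1, 13.3 and -8.33 percentage points, a mean of 9.69 ± 16.5 (SD, n = 3), which is within the spread.

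**Figure D3:**
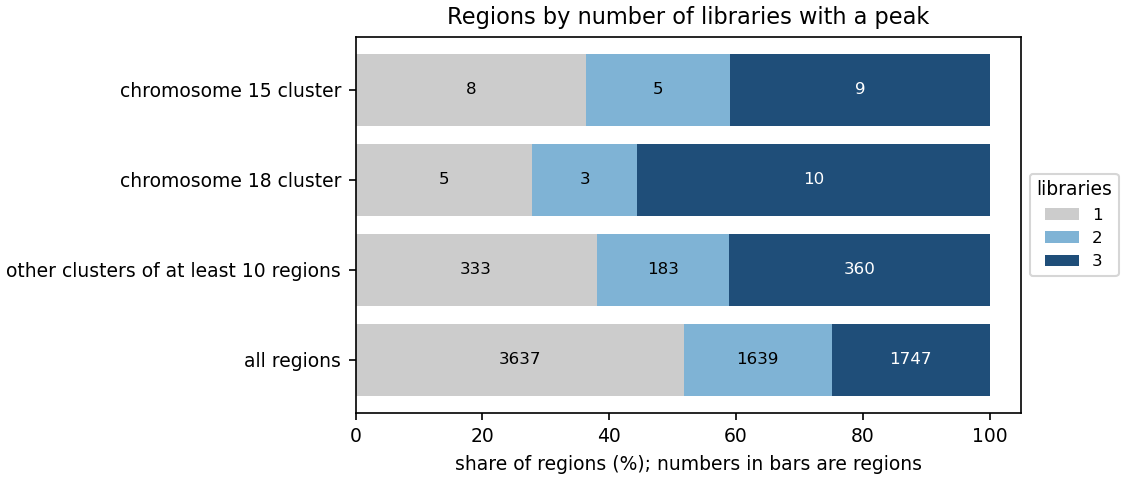
Share of regions with peaks in 1, 2 or 3 libraries, in percent, for the chromosome 15 cluster, the chromosome 18 cluster, the other clusters of at least 10 regions and all regions; numbers in the bars are regions. Core regions make up 9 of 22 on chromosome 15, 10 of 18 on chromosome 18 and 1747 of all 7023.

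The clusters also differed in how often the libraries gave a peak the same edges. On chromosome 18, 6 of the 10 core regions had the same start and end in all 3 lists, against 1 of 9 on chromosome 15. Among all core regions the count was 815 of 1747 (46.7%). A core region 1 bin wide has equal edges in all 3 lists by construction. Such regions numbered 5 of 10 on chromosome 18, 1 of 9 on chromosome 15 and 697 of 1747 in all. The contrast in edges therefore follows largely from the width of the core regions. In bins of 20 nt, the grid on which all peaks lie, 22 bins of each cluster were covered in all 3 libraries. These were 22 of the 51 bins covered by any library on chromosome 15 (43.1%) and 22 of 42 on chromosome 18 (52.4%). For replicates 1 and 2 the bins covered in both made up 68.0% of those covered in either on chromosome 15 and 79.5% on chromosome 18. For replicates 1 and 3 the figures were 50% and 58.5%, and for replicates 2 and 3 they were 55.0% and 59.5%. Bins of a cluster are not independent, and no test was made on them. The peaks with equal coordinates in all 3 lists stand together at the top of each deposited list, the 18 from chromosome 18 and the 3 from chromosome 15 among them, so the lists were not handled wholly apart before deposit. The part of that handling in the agreement was not tested.

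Within the 2 windows, wide peaks were more frequent on chromosome 15. Single-bin peaks numbered 11 of 19, 10 of 18 and 8 of 12 in replicates 1, 2 and 3 on chromosome 15 (60.04% ± 5.86, SD, n = 3). On chromosome 18 they numbered 9 of 14, 12 of 15 and 12 of 16 (73.1% ± 8.0). In the whole lists 76.9% ± 1.5 of peaks were 1 bin wide. The difference between the clusters, 13.1 ± 9.9 percentage points, had the same sign in 3 of 3 libraries, and it ranged from 6.39 points in replicate 1 to 24.4 in replicate 2. It too rests on the edge of the chromosome 18 window. With the peaks of the extended window included, its sign turned in replicate 1, and it was smaller in replicates 2 and 3. Mean widths did not follow it. They were 49.5, 41.1 and 41.7 nt on chromosome 15 and 54.3, 42.7 and 33.75 nt on chromosome 18, a difference of -0.52 ± 6.61 nt (SD, n = 3). Of the merged regions, 59.1% were 1 bin wide on chromosome 15 and 72.2% on chromosome 18. The share was 60.3% in the other clusters of at least 10 regions and 77.6% over all regions. By region width the chromosome 15 cluster was thus close to other dense clusters.

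The mean on chromosome 18 includes the widest peak of either cluster. At 37714221 to 37714520 replicate 1 had 1 peak of 300 nt, with a score of 120. Replicate 2 had a peak of 260 nt (score 90) and one of 20 nt (41) in the same place, and replicate 3 had one of 100 nt (42) and one of 80 nt (39). Such division of a core region into more peaks in one library than in another occurred in 2 of 10 core regions on chromosome 18 and in 4 of 9 on chromosome 15. Core regions with more than 1 peak of a library numbered 244 of 1747 in all (14.0%) and 94 of 360 in the other clusters of at least 10 regions (26.1%). Peak counts therefore depend on where the caller joined bins, and the covered share does not count a divided peak as 2. The widest peaks on chromosome 15 were 140, 140 and 120 nt in replicates 1, 2 and 3 and belonged to a single core region.

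Peaks were spread unevenly along both clusters. Positions run 5′ to 3′ from high to low coordinates on the minus strand, and each cluster was divided into 4 equal segments. On chromosome 15 the third segment from the 5′ edge was the most covered, with 64.3%, 50% and 42.9% in replicates 1, 2 and 3, and no other segment exceeded 39.3% in any library. On chromosome 18 the first segment was the most covered, with 84.6%, 74.4% and 56.4%, followed by the third with 51.3%, 51.3% and 46.2%. The last chromosome 18 segment was the least covered, with 20.5%, 10.3% and 15.4%. The most covered segment was the same in all 3 libraries in either cluster. The longest stretch without a peak of any library was 180 nt on chromosome 15 (43476941 to 43477120) and 100 nt on chromosome 18 (37713361 to 37713460). Midpoints of neighbouring core regions lay a median of 170 nt apart on chromosome 15 (range 60 to 470) and 130 nt on chromosome 18 (range 50 to 280).

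Scores, which are the authors' values and are used here only to rank peaks within a list, were above the middle of the lists in both clusters. The median percentile was 62.5, 66.7 and 68.6 on chromosome 15 in replicates 1, 2 and 3, and 88.6, 64.0 and 65.6 on chromosome 18. The clusters differed by 26.1 points in replicate 1 and by -2.78 and -3.0 in the others, so no difference of rank held over the libraries (6.76 ± 16.7, SD, n = 3). Peaks at or above the 90th percentile numbered 3 of 19, 4 of 18 and 2 of 12 on chromosome 15. On chromosome 18 they numbered 7 of 14, 6 of 15 and 2 of 16. Over the whole lists such peaks made up 10.0%, 9.94% and 10.0%. Peaks of core regions ranked higher than those seen in 1 library. In replicate 1 of the chromosome 15 cluster the median percentile was 86.2 in core regions and 17.5 in the 5 regions seen only there, beside 81.1 and 25.9 over the whole list.

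The 5 core regions of each cluster with the highest mean percentile of their best peak over the 3 libraries are given in full. On chromosome 15 the first was at 43476641 to 43476780, the widest core region of that cluster, with scores of 130, 70 and 46 in replicates 1, 2 and 3 and a mean percentile of 91.4. The second, at 43477121 to 43477240, had highest scores of 71, 69 and 72. In replicate 3 this region and the fourth, at 43477281 to 43477340 with 69, 65 and 72, shared the top rank of the cluster (percentile 96.2), whereas in replicate 1 their percentiles were 83.2 and 81.9. The third, at 43476081 to 43476120, scored 103, 71 and 42. The fifth, at 43476241 to 43476340, scored 77, 104 and 37 and was the highest of the cluster in replicate 2 only. Each of the 3 libraries thus had a different region on top.

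The remaining core regions of chromosome 15 ranked lower. Those at 43477481 to 43477600 and 43476361 to 43476460 had highest scores of 85, 68 and 34 and of 67, 49 and 31. The only one with equal coordinates in all 3 lists, a single bin at 43477741 to 43477760, scored 100, 41 and 27 and ranked at the 93.1st, 64.0th and 51.1st percentile. The last, at 43476141 to 43476180, scored 38, 29 and 20 and lay below the 30th percentile in each list, so a region can be core without ranking high in any library.

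On chromosome 18 the first was a single bin at 37713661 to 37713680, with scores of 113, 85 and 55 and percentiles of 94.9, 94.5 and 91.7. The second, at 37713721 to 37713860, had highest scores of 105, 101 and 49. The third, a region of 40 nt at 37713501 to 37713540, scored 122, 71 and 56. The first and the third, both with equal coordinates in the 3 lists, were at or above the 90th percentile in each list, as were 179 of all 1747 core regions (10.2%). No core region of chromosome 15 was. The fourth, a single bin at 37714081 to 37714100, had the highest scores of the cluster in replicates 1 and 2 (168 and 108) but 41 in replicate 3, where its percentile was 82.2. The fifth was the 300-nt region described above.

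Among the other core regions of chromosome 18, the one at 37713941 to 37713980 scored 78, 41 and 34. The bin at 37713881 to 37713900 had scores of 90, 35 and 26, and the bin at the 5′ edge those given above. The region at 37713261 to 37713320 scored 56, 38 and 22, and the bin at 37713461 to 37713480 scored 43, 26 and 21. The last 2 thus lay close to the lowest scores of replicate 3. The only region found in replicates 1 and 3 but not in replicate 2, at 37714561 to 37714580, scored 96 in replicate 1 (percentile 92.1) and 29 in replicate 3.

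The order of core regions by score was more alike between libraries on chromosome 18. Over its 10 core regions Spearman's rho of the percentiles was 0.78 for replicates 1 and 2, 0.83 for 1 and 3 and 0.70 for 2 and 3. Over the 9 core regions of chromosome 15 it was 0.57, 0.26 and 0.60. These are descriptions over regions that share a locus and a list, with no test of the difference.

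**Figure D4:**
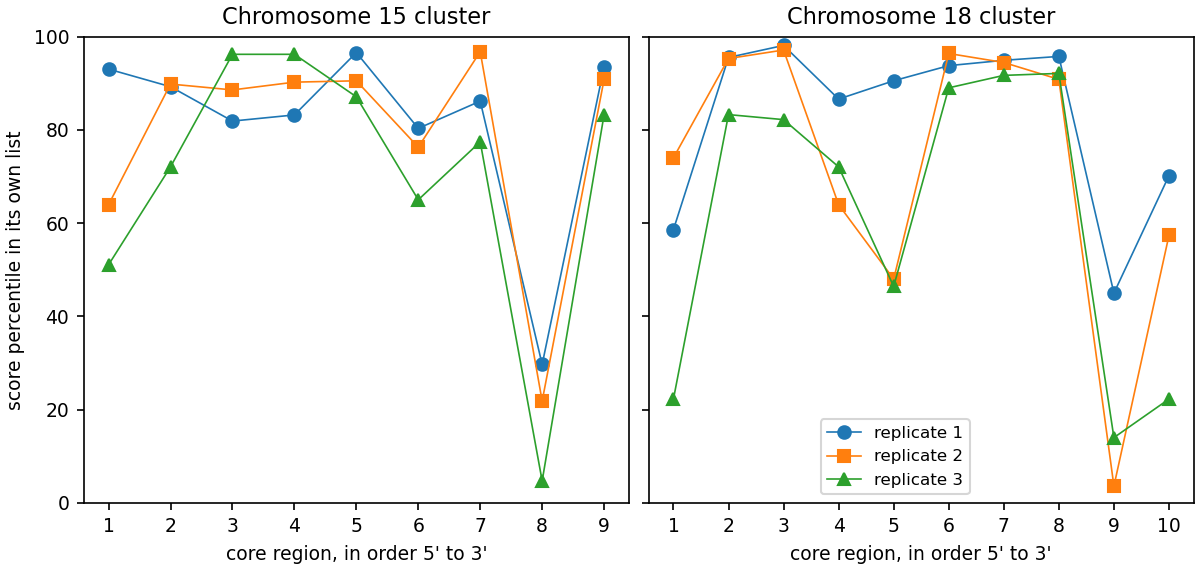
Score percentile, within its own list, of the best peak in each core region of the chromosome 15 cluster (left, 9 regions) and the chromosome 18 cluster (right, 10 regions), in order from 5′ to 3′; lines join regions of one library. The libraries share the low eighth region on chromosome 15 and the low ninth on chromosome 18, and on chromosome 15 replicate 3 peaks at regions 3 and 4, where replicate 1 does not.

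Set against the other clusters of at least 10 regions (53 in all, gaps of at most 200 nt), the chromosome 18 cluster ranked high in mean density. The chromosome 15 cluster did not. In mean peaks per kb, 11 clusters exceeded the chromosome 18 cluster and 38 exceeded the chromosome 15 cluster. The chromosome 15 cluster was the longer and had more regions than most, with 8 clusters longer and 7 with more regions. In replicate 3 alone, 4 clusters were denser than chromosome 18, whereas in replicate 1 there were 39. The chromosome 18 rank also rests on the edge of its window. The extended window had 7.07 peaks per kb, beside a median of 8.19 among the other 52 clusters, which were not extended. Likeness was measured as the Euclidean distance between log2 peaks per kb in the 3 libraries, each cluster against the other 52.

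The clusters most like that of chromosome 15 lay on chromosome 1 plus (113265961 to 113267780, distance 0.26), chromosome 8 minus (96102081 to 96103360, 0.34) and chromosome 4 minus (63011301 to 63012760, 0.35). They had 17, 17 and 10 peaks, 13, 11 and 6 peaks, and 15, 13 and 7 peaks in replicates 1, 2 and 3, so replicate 3 had the fewest in each. Those most like the chromosome 18 cluster lay on the mitochondrial plus strand (21 to 2660, distance 0.20), chromosome 9 plus (73459241 to 73462920, 0.21) and chromosome X minus (115098681 to 115105800, 0.22). They had 27, 25 and 28, 35, 35 and 33, and 65, 64 and 64 peaks, nearly the same number in each library. All of these clusters are dense stretches of the same 3 libraries and were picked by the nearness of their profiles, so their likeness follows from the choice. The chromosome 15 and chromosome 18 clusters were 0.98 apart, and 41 clusters were closer to chromosome 15 than the chromosome 18 cluster was. Both this distance and the even chromosome 18 profile rest on the edge of its window. The extended window had 26, 26 and 21 peaks, or 7.56, 7.56 and 6.10 per kb, in replicates 1, 2 and 3. These densities were nearer to chromosome 15 in replicates 2 and 3 and further from it in replicate 1. No distance was taken for the extended window.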

How the data were processed

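Each SYNCRIP library has a list of its own; per the submitters' processing notes, STAR was the aligner and rn6 the build, and the names of the deposited lists give Piranha with bins of 20 nt as the caller. For the threshold of the caller, PCR copies and whether IgG entered the calls, nothing is stated in the labels or lists. The whole-number score per peak is as the authors deposited it; what it counts is not stated, so scores were turned into mid-rank percentiles within a list. A malformed entry of replicate 1 (1 row) was left out.

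Peaks were merged into regions and regions chained with python 3.11.15, pandas 2.3.3 and numpy 2.4.6; Wilson intervals (95%) and Spearman's rho came from scipy 1.17.1. Book-ended peaks stayed apart. Merging was tested on simulated data. Differences between clusters were taken within a library and given as mean ± SD. A sign-flip test over 3 libraries could not pass any usual threshold, so none was run. The submitters describe the replicates as biological. Named regions are the 5 core regions of each cluster with the highest mean percentile, the 3 most alike clusters and the peaks at the edges; other core regions were added after their values were seen. The clusters and rules were chosen with earlier results of these data known. Lists of family and pathway genes were not used, for want of an rn6 annotation. Alternatives were other overlap rules, stricter scores, equal list length (ties broken by position), each library left out, other gaps and an extended chromosome 18 window.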

Additional observations from a re-analysis of the deposited data

How the results depend on the processing

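Of 44 alternative values, 32 stayed within 1.5 times the count or 1 SD of the value reported (or, for spans, equal to it), 10 moved further and 2 reversed. The reversals came with the chromosome 18 window extended over gaps of at most 1 kb, chosen after the data were seen: the chromosome 18 minus chromosome 15 difference became -0.22 peaks per kb and -4.15 percentage points of covered share, and the chromosome 18 density 7.07 peaks per kb, since the added stretch holds fewer peaks per length. That difference in peaks per kb lay within its spread (SD 0.87, n = 3). Core regions of the extended window numbered 15 of 33, a smaller share than the 10 of 18 within the window of the rule. Requiring identical coordinates left 1 core region on chromosome 15 and 6 on chromosome 18. Scores of at least 1.5 times the lowest of the list left 6 core regions on chromosome 18 and densities of 4.46 and 5.98 peaks per kb on chromosomes 15 and 18, and equal list length gave 5.51 and 8.55, since fewer peaks enter. Bridging gaps of at most 100 nt left a longest piece by core regions of 920 nt on chromosome 15, and gaps of up to 1 kb gave a chromosome 18 span of 3440 nt. With 1 library left out, core regions (both remaining libraries required) numbered 9 to 13 on chromosome 15 and 10 to 12 on chromosome 18. Densities were then 6.70 to 8.26 and 9.29 to 9.94 peaks per kb, and the differences 1.04 to 3.24 peaks per kb and 7.37 to 10.1 percentage points. No paired analysis was possible because, of the antibody groups that share replicate numbers, SYNCRIP alone was analysed here; differences between the clusters were taken within each library. Depth is unknown, so absence from a list does not show an unbound site.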
